A study of Mus musculus with 16 samples.

Results

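The acyl-CoA thioesterases examined here are 8 mouse genes, Acot1, Acot2, Acot3, Acot4, Acot7, Acot8, Acot12 and Acot13. They were measured by 10 Affymetrix Mouse430A_2 probe sets, the groups of short probes that together report 1 transcript. The members were chosen by name as the probe sets paired with 1 of these genes alone: 10 of the 20380 probe sets with a single gene symbol and 8 of 12393 named genes. Acot4 and Acot12 had 2 probe sets each, and the other 6 genes had 1. A further probe set, 1422997_s_at, was paired with both Acot1 and Acot2 and is described apart from the members.

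Liver and quadriceps, a skeletal muscle of the thigh, came from wild-type mice and from KLF15-null mice, which lack the Kruppel-like zinc finger transcription factor Klf15. The mice of all groups were female, 4 to 5 months old and fasted for 18 h. Each of the 4 groups (liver wild type, liver knockout, quadriceps wild type, quadriceps knockout) held 4 arrays with 1 sample each, numbered 1 to 4 in wild type and 5 to 8 in knockout. The labels do not say whether each sample came from a separate mouse, so each p-value covers the spread among samples that may or may not be separate animals. They name neither the strain nor the way the gene was disrupted.

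Fatty acids are joined to coenzyme A before they are oxidised, stored or built into lipids. Acyl-CoA thioesterases cut this bond and release the free acid and coenzyme A, so they act against the acyl-CoA synthetases. In the mouse the members work in different compartments. Acot1, Acot7 and Acot12 are mainly cytosolic enzymes, Acot2 and Acot13 are found at mitochondria, and Acot3, Acot4 and Acot8 are peroxisomal. Acot1 prefers long-chain acyl-CoA and is a known target of PPAR alpha, the nuclear receptor of the fasted liver. Acot7 also takes long-chain substrates and is best known from brain, and Acot12 cuts acetyl-CoA.

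Acot1 to Acot6 are close relatives that lie side by side on chromosome 12. In the RefSeq table of assembly GRCm38.p6 their order was Acot2, Acot1, Acot4, Acot3, Acot5 and Acot6, with the noncoding gene Gm40474 between Acot1 and Acot4 and the pseudogene Gm8385 between Acot5 and Acot6. The probe set of Acot3, 1422925_s_at, carries the suffix that Affymetrix gives to probe sets matching several related transcripts, so its signal may hold a share from a relative. Probe sequences were not used here, and that share was not tested.

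The promoter windows of the 3 members whose signal fell in a knockout tissue are shown as a description. No signal result rests on them. Each is a RefSeq window of GRCm38.p6 on the plus strand, from 250 bases before to 50 bases after an annotated start. Capitals mark a match to CCACCC on either strand.
Acot1, chr12:84009252-84009551: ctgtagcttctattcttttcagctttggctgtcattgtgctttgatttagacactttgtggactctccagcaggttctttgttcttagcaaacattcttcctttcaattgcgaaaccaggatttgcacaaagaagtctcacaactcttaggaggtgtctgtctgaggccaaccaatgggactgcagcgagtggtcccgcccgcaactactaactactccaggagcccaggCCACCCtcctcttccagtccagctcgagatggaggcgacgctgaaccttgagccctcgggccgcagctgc
Acot3, chr12:84051894-84052193: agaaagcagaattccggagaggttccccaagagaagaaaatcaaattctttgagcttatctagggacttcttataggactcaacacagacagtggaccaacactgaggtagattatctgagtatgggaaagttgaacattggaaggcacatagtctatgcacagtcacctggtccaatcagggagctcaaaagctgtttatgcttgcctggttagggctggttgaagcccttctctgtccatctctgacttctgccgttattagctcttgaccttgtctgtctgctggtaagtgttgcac
Acot7, chr4:152185358-152185657: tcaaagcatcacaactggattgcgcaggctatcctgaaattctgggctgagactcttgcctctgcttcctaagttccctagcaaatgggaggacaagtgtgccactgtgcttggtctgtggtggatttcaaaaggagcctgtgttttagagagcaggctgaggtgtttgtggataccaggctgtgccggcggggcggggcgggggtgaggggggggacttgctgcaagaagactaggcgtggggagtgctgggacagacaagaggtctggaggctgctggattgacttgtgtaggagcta

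Windows were present for 7 of the 8 members, in 8 windows, and Acot13 was not among them. CCACCC, a core of the sites that Kruppel-like factors bind, stood 20 to 15 bases before the start of Acot1 and in none of the windows of the other 6 genes, while 31.5% of all 32851 windows held it. A direct repeat of AGGTCA spaced by 1 base, the half-site arrangement that PPAR alpha binds, was searched on both strands with at most 2 mismatches in its 12 fixed bases. It was found as TGACCTTTGGCCG, 13 bases to 1 base before the start of Acot4 with 2 mismatches, and as TGACCTCTCACCT, 110 to 98 bases before the start of Acot12 with 1 mismatch, both on the minus strand. Of all windows, 3.86% held such a match. The windows of Acot3 and Acot7 held neither motif. The Acot7 window begins at base 152185358, inside the gene, which begins at base 152178100, so sequence before that first base was not searched. The windows of Acot4, Acot8 and Acot12 also stood at a start inside the annotated gene. These are letter matches in short windows and say nothing about binding.

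The libraries matched their tissue and genotype labels. Klf15 itself (1448181_at) had a mean signal of 1093 ± 195 (SD, n = 4) in wild-type and 165.5 ± 23.6 in knockout liver, and of 656 ± 95 in wild-type and 57.3 ± 33.5 in knockout quadriceps. Summed signal of 6 measured hepatocyte markers was 44513 to 50773 in liver and 48.3 to 95.4 in quadriceps, and that of 8 myofibre markers was 57254 to 193210 in quadriceps and at most 128.5 in liver. One library differed from the rest, knockout quadriceps 8. Before scaling its median signal was 15.6, where the other 7 quadriceps arrays had 32.5 to 59.2, and it was scanned on another day. The ratio of 3' to 5' Gapdh signal, which tracks RNA quality, was 1.09 in it, between 0.785 and 0.790 in the 3 other knockout libraries, and between 0.855 and 0.937 in wild-type quadriceps. Within each tissue every wild-type array was washed on one fluidics station and every knockout array on the other, so an effect of the station cannot be told apart from one of genotype.

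Signals below are in the arbitrary brightness units of the array, with quadriceps arrays scaled to 1 median. Differences are on the log2(signal + 16) scale, which understates the change of dim probe sets, with standard errors and adjusted p from limma over all probe sets tested and a threshold of 0.05. A probe set was tested where its mean reached a filter signal of 25.1 in liver or 24.1 in quadriceps. In whole tissue, fewer cells of a type and less RNA per cell cannot be told apart. Signals of different probe sets are not set against each other.

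Loss of Klf15 went with lower Acot7 in both tissues and with lower Acot1 in quadriceps. Acot3 was lower in knockout liver, a call that some settings and single libraries ended. The mitochondrial members Acot2 and Acot13 passed the test in neither tissue, and no member rose past the test in either tissue (4.44% of all probe sets tested did in liver and 0.0639% in quadriceps). In liver 2 of 10 member probe sets were called, Acot7 and Acot3, both lower, where 8.80% of all 12482 probe sets tested were called and 4.36% were called lower. In quadriceps 5 of 10 reached the filter and 2 of these 5 were called, Acot1 and Acot7, both lower, where 0.615% of 12524 were called and 0.551% were called lower. Acot1 reached the quadriceps filter through its wild-type arrays alone, so this count supports no statement about the group, and with a filter at the 60th percentile it was 1, Acot7. The median difference was -0.20 over the 10 members in liver against 0.03 over all probe sets, and -0.12 over the 5 tested in quadriceps against -0.15. The quadriceps median moved with the scaling, to -0.04 under quantile normalization and to -0.44 without scaling, so quadriceps differences are also given relative to it.

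Acot7, the cytosolic long-chain enzyme, was measured by 1417094_at. In wild-type liver its signals were 163.9, 182.3, 162.3 and 143.2, and in knockout liver 77.1, 71.9, 89.5 and 57.2. In wild-type quadriceps they were 210.7, 188.0, 205.1 and 169.1, and in knockout quadriceps 83.2, 75.1, 84.8 and 87.5. Every knockout array lay below every wild-type array of its tissue. Group means were 163 ± 16 and 73.9 ± 13.4 in liver, a ratio of 0.454, and 193 ± 18.7 and 82.7 ± 5.34 in quadriceps, a ratio of 0.428 (SD, n = 4).

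The Acot7 difference between knockout and wild type was -1.0 in liver (SE 0.13, 95% interval -1.29 to -0.71, adjusted p = 0.000407). In quadriceps it was -1.08 (SE 0.16, 95% interval -1.42 to -0.74, adjusted p = 0.00272), or -0.93 relative to the median of all probe sets. The liver effect minus the quadriceps effect was 0.08 (95% interval -0.33 to 0.49, adjusted p = 0.864), so a difference between the tissues beyond that interval was not seen. Arrays of a tissue were also paired by fluidics module number, 1 wild-type with 1 knockout array. The arrays of a pair were washed on different stations, so they did not share a module. Within these pairs the Acot7 differences were -1.17 to -0.76 in liver and -1.19 to -0.84 in quadriceps. Their direction was fixed in advance, since the groups did not overlap. Of 10859 probe sets tested in both tissues, 41 (0.378%) were called lower in both, and Acot7 was the member among them.

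Acot1, the cytosolic PPAR alpha target, was measured by 1449065_at. In wild-type quadriceps its signals were 93.9, 94.3, 104.2 and 159.8, and in knockout quadriceps 6.10, 14.2, 20.8 and 16.2. The groups did not overlap, as for Acot7, where 7.94% of all probe sets tested in quadriceps had groups without overlap and 6.68% had the knockout group lower. All 4 knockout signals of Acot1 lay below the filter signal of 24.1, so the probe set reached the filter through the wild-type arrays. The means were 113 ± 31.5 and 14.3 ± 6.15 (SD, n = 4). No ratio is given, since the knockout arm lay below the filter signal. The difference was -2.08 (SE 0.22, 95% interval -2.56 to -1.60, adjusted p = 0.000138), or -1.93 relative to the median of all probe sets, and its size ranged from -2.97 to -1.16 over the alternatives. In the 4 pairs of the same module number the difference lay between -2.45 and -1.71, its direction being fixed by the lack of overlap.

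In liver Acot1 was bright and varied more. Wild-type signals were 1914, 1261, 1542 and 502.7, and knockout signals 899.6, 761.2, 480.0 and 465.7. Wild-type liver 4 lay within the range of the knockout arrays, and the other 3 wild-type arrays lay above all of them. The means were 1305 ± 598 and 652 ± 214, and the difference of -0.89 did not pass the test (SE 0.33, 95% interval -1.61 to -0.17, adjusted p = 0.129). Over the alternative settings its adjusted p ranged from 0.0045 to 0.282. It passed without wild-type liver 4, at -1.29 (adjusted p = 0.0045), and with the fluidics module number as a block, at -0.89 (adjusted p = 0.0298). The knockout array was the lower in 4 of 4 pairs of the same module number, whose arrays were on different stations.

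The order of the Acot1 levels was wild-type liver, knockout liver, wild-type quadriceps and knockout quadriceps, and the first pair did not differ past the test. The liver difference of Acot1 minus its quadriceps difference was 1.2, the quadriceps difference being the more negative (SE 0.43, 95% interval 0.29 to 2.10, unadjusted p = 0.012, adjusted p = 0.158 in limma), so the tissues were not shown to differ in it.

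The probe set shared by Acot2 and Acot1, 1422997_s_at, followed the Acot1 probe set in liver. Its liver signals were 1932, 1377, 1557 and 465.5 in wild type and 888.7, 742.9, 516.0 and 509.3 in knockout, with wild-type liver 4 again low. Over the 8 liver arrays its Pearson r was 0.994 with the Acot1 probe set and 0.096 with the Acot2 probe set, and over the 8 quadriceps arrays 0.844 and 0.451. These correlations are descriptions, and the points share arrays and genotype. In quadriceps its signals were 128.6, 143.7, 173.4 and 152.1 in wild type and 29.2, 91.7, 105.5 and 37.6 in knockout. The groups did not overlap, and the difference of -1.13 did not pass the test (SE 0.28, adjusted p = 0.0943) in a fit that included probe sets with several symbols.

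**Figure D1:**
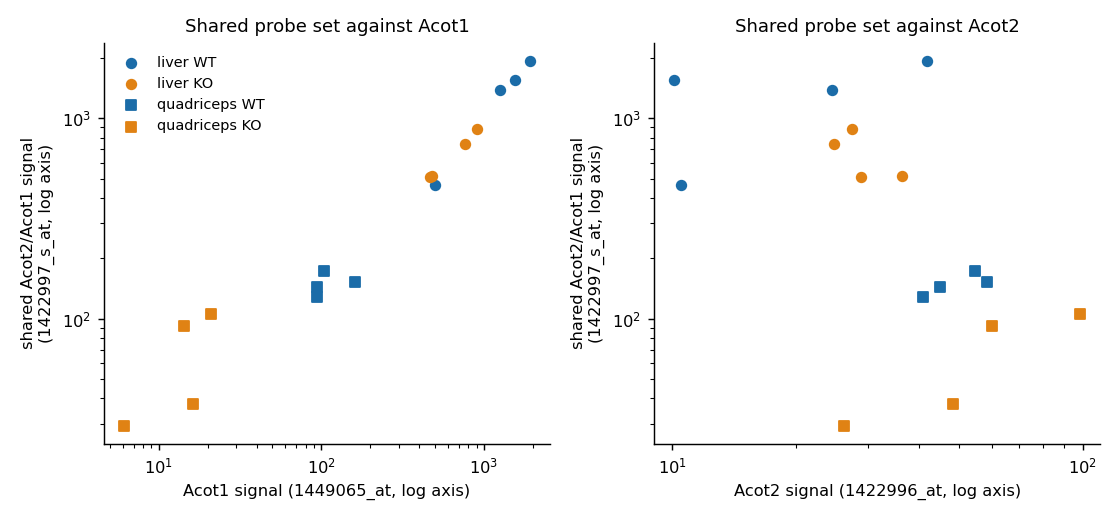
Signal of the probe set shared by Acot2 and Acot1 (vertical) against the Acot1 probe set (left) and the Acot2 probe set (right) on 16 arrays, both axes log, with colour for genotype and shape for tissue. In liver the shared signal rises with Acot1 (r = 0.994 over 8 arrays) and shows no such order with Acot2 (r = 0.096).

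Acot12, the acetyl-CoA hydrolase of the cytosol, was measured by 2 probe sets. At 1419395_at the means were 455 ± 45.8 in wild-type and 389.6 ± 28.4 in knockout liver. The knockout signals, 348.5 to 412.8, lay just below the wild-type signals, 416.1 to 508, and the difference of -0.21 did not pass the test (95% interval -0.44 to 0.01, adjusted p = 0.25). At 1449457_at the means were 1205 ± 221 and 981 ± 74.8, the groups overlapped, and the difference was -0.28 (95% interval -0.54 to -0.02, adjusted p = 0.194). In quadriceps both probe sets lay below the filter and were not tested, with signals up to 15.4 in wild type and up to 28.4 in knockout.

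Of the mitochondrial members, Acot13, a small thioesterase associated with mitochondria, had liver signals of 656.7, 680.0, 794.4 and 589.5 in wild type and 901.3, 963.2, 698.7 and 752.9 in knockout. The groups overlapped, and the difference was 0.28 (SE 0.12, 95% interval 0.01 to 0.54, adjusted p = 0.2). In quadriceps the signals were 1141, 1084, 1430.1 and 1126 in wild type and 775.9, 869.1, 999.6 and 2072 in knockout. After scaling, knockout 8, the array that stood apart, was the highest of the 8, and the other 3 knockout arrays were lower than each of the wild-type arrays. The deposited signal of knockout 8 was 805.2, which scaling multiplied by 2.57. Deposited signals were 1045.6 to 1474.8 in wild type and 703.5 to 1144.1 in knockout, so its rank came from the scaling. The difference was -0.12 with all arrays (95% interval -0.75 to 0.50, adjusted p = 0.857) and -0.43 without knockout 8 (adjusted p = 0.078).

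Acot2, the thioesterase of the mitochondrial matrix, was dim in both tissues. Its liver mean was 21.7 ± 15.0 in wild type and 29.3 ± 4.92 in knockout, close to the filter signal of 25.1, with a difference of 0.34 (95% interval -0.19 to 0.87, adjusted p = 0.47). In quadriceps the means were 49.7 ± 8.19 and 58.3 ± 30.3, with knockout signals spread from 26.2 to 98.5. That difference was 0.10 (95% interval -0.46 to 0.65, adjusted p = 0.882).

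Among the peroxisomal members Acot3, a long-chain thioesterase, had wild-type liver signals of 1091, 1766, 1404 and 1133 and knockout liver signals of 941.6, 1065, 486.6 and 552.6. The knockout arrays all lay below the wild-type arrays, with knockout 6 only slightly below wild type 1. The means were 1348 ± 311 and 762 ± 285 (SD, n = 4), a ratio of 0.565, and Acot3 fell by 0.86 on the log2 scale (SE 0.23, 95% interval -1.35 to -0.37, adjusted p = 0.0325). Within the 4 pairs of the same module number the differences were -1.50 to -0.21, all negative because the groups did not overlap.

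The Acot3 call in liver rested on single libraries and settings. It was past the threshold in 12 of 20 alternatives, with an adjusted p between 0.00823 and 0.13 and a difference between -1.04 and -0.68. It was lost without wild-type liver 2 (-0.72, adjusted p = 0.0963), wild-type liver 3 (-0.83, adjusted p = 0.0716), knockout liver 7 (-0.68, adjusted p = 0.084) or knockout liver 8 (-0.74, adjusted p = 0.0922). In quadriceps Acot3 lay at 23.0 ± 7.95 in wild type and 24.0 ± 18.6 in knockout, below the filter, and was not tested.

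Acot8, a peroxisomal thioesterase of broad substrate range, was the one member whose knockout liver arrays all lay above the wild-type arrays. The signals were 420.8, 400.7, 420.3 and 347.8 in wild type and 456.2, 486.7, 485.9 and 493.6 in knockout. The means were 397 ± 34.4 and 481 ± 16.6, and the difference of 0.27 did not pass the test (SE 0.10, 95% interval 0.06 to 0.48, adjusted p = 0.111). Across the 10 members 4 probe sets had groups without overlap in liver, 3 lower (Acot3, Acot7 and 1419395_at of Acot12) and 1 higher (Acot8), where 14.9% of all probe sets tested had none, 6.69% lower and 8.24% higher. In quadriceps Acot8 was at 40.9 ± 9.91 and 41.3 ± 6.83, a difference of 0.02 (95% interval -0.42 to 0.45, adjusted p = 0.975).

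Acot4, which cuts succinyl-CoA, passed no test between genotypes. At 1422076_at the liver means were 199.9 ± 42.9 in wild type and 172 ± 32.8 in knockout, a difference of -0.20 (95% interval -0.54 to 0.15, adjusted p = 0.526). At 1422077_at they were 74.3 ± 22.6 and 65.0 ± 10.6, a difference of -0.13 (95% interval -0.51 to 0.25, adjusted p = 0.717). In quadriceps all signals of both probe sets were 11 or lower, below the filter.

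**Figure D2:**
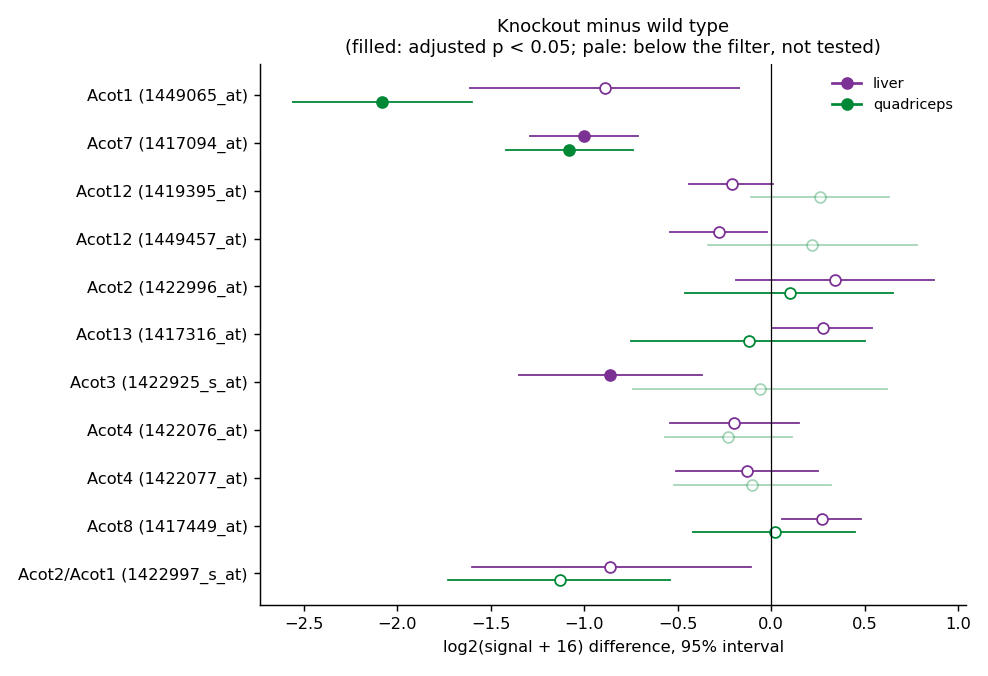
Knockout minus wild type for each probe set in liver (purple) and quadriceps (green), as the log2(signal + 16) difference with its 95% interval, n = 4 against 4. Filled points passed an adjusted p of 0.05 in limma and pale points lay below the filter and were not tested; Acot7 is filled in both tissues at -1.0 and -1.08, Acot1 in quadriceps at -2.08 and Acot3 in liver at -0.86.

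By compartment, 1 of the 4 cytosolic probe sets fell in liver, Acot7, with differences from -1.0 to -0.21, where 4.36% of all probe sets tested were called lower. In quadriceps Acot7 and Acot1 were the cytosolic probe sets tested and both were called lower, as were 0.551% of all, but Acot1 entered through its wild-type arrays and both Acot12 probe sets lay below the filter. Of the 4 peroxisomal probe sets 1 fell in liver, Acot3, with differences from -0.86 to 0.27, and Acot8 was the peroxisomal probe set tested in quadriceps. Both mitochondrial probe sets were tested in both tissues, with differences of 0.28 and 0.34 in liver and of -0.12 and 0.10 in quadriceps, and 0 of 2 were called in either. The compartments were not tested against each other.

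The test of the difference between the tissues called 0 of 10 members in limma, where 1.71% of 14147 probe sets were called, and 1 of 10, Acot1, had an unadjusted p under 0.05, as had 17.3% of all. Without knockout quadriceps 8, a setting in which 17.0% of all probe sets were called, it called 2 members. These were Acot13, whose liver effect was higher by 0.71 (adjusted p = 0.0195), and Acot3, with a term of -1.08 (adjusted p = 0.0471). With all arrays the terms were 0.40 (adjusted p = 0.544) and -0.80 (adjusted p = 0.316).

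This library decided how many probe sets were called in quadriceps and not which members were. Without it 2646 of 12527 probe sets (21.1%) were called in place of 77, and Acot1 stood at -2.16 (adjusted p = 8.29e-05) and Acot7 at -1.11 (adjusted p = 0.000558). With scan day as a block they stood at -2.12 (adjusted p = 0.000107) and -1.11 (adjusted p = 0.000587). As this library was the only quadriceps array of its scan day, that block sets it apart and is no separate check.

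Fibre type and other cells varied among the quadriceps arrays. The summed signal of 7 slow fibre markers was 10374 to 17547 in wild type and 1324, 6963, 12958 and 25204 in knockout, with a median difference of -1.01 and 0 of 7 past the test, and 0 of 7 with an unadjusted p under 0.05 in limma. On the same 4 knockout arrays the Acot7 signals ranged from 75.1 to 87.5. Those of Acot1, all below the filter signal, ranged from 6.10 to 20.8. The sum of the 6 measured adipocyte markers was 4459 to 6726 in wild type and 2923, 3985, 4000 and 7794 in knockout. Ucp1 and Cidea were below the filter signal in both. The highest knockout sum of slow fibre and of adipocyte markers was that of knockout 8, whose signals were multiplied by 2.57. The adipocyte sums of the other knockout arrays lay below every wild-type sum. Of the 4 adipocyte markers tested 0 were called and 2 had an unadjusted p under 0.05, both lower in limma. Over all probe sets tested in quadriceps 0.615% were called and 15.8% had an unadjusted p under 0.05. The sum of 5 endothelial markers was 699.8 to 906 in wild type and 570.4 to 767 in knockout. The part of cell makeup or of the Gapdh ratio in the quadriceps results was not tested.

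In liver the hepatocyte markers summed to 47203 to 50773 in wild type and 44513 to 49471 in knockout. Macrophage markers summed to 2951 to 4202 and 3452 to 5658, and 1 of 7 was called, Marco, a scavenger receptor of Kupffer cells, higher by 1.58 (adjusted p = 0.0328). The Marco groups overlapped, at 58.3 ± 30.3 in wild type and 218.6 ± 129.5 in knockout. Endothelial markers summed to 349.4 to 452.7 in wild type and 451.1 to 535.6 in knockout, and 1 of 5 was called, Kdr, a receptor of vascular growth factor, higher by 0.49 (adjusted p = 0.0303). Of the 6 hepatocyte markers 1 was called, Tat, the tyrosine aminotransferase, with a difference of -0.67 (adjusted p = 0.00161). An unadjusted p under 0.05 in limma was reached by 4 of 6 hepatocyte markers, 2 of them higher, 2 of 7 macrophage and 1 of 5 endothelial markers. Over all probe sets tested in liver 8.80% were called and 22.3% had an unadjusted p under 0.05. The part of these cells in the liver values was not tested.

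In wild type, Acot1, Acot3, Acot4, Acot8 and Acot12 were higher in liver, Acot2 and Acot13 were higher in quadriceps, and Acot7 did not pass the test. In all, 9 of 10 probe sets were called, 7 higher in liver and 2 lower, where 66.9% of 14147 probe sets were called, 33.6% higher and 33.3% lower. Acot3 and both probe sets of Acot4 and of Acot12 entered through liver alone, so a difference was built into their entry, and these counts support no statement about the group.

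**Figure D3:**
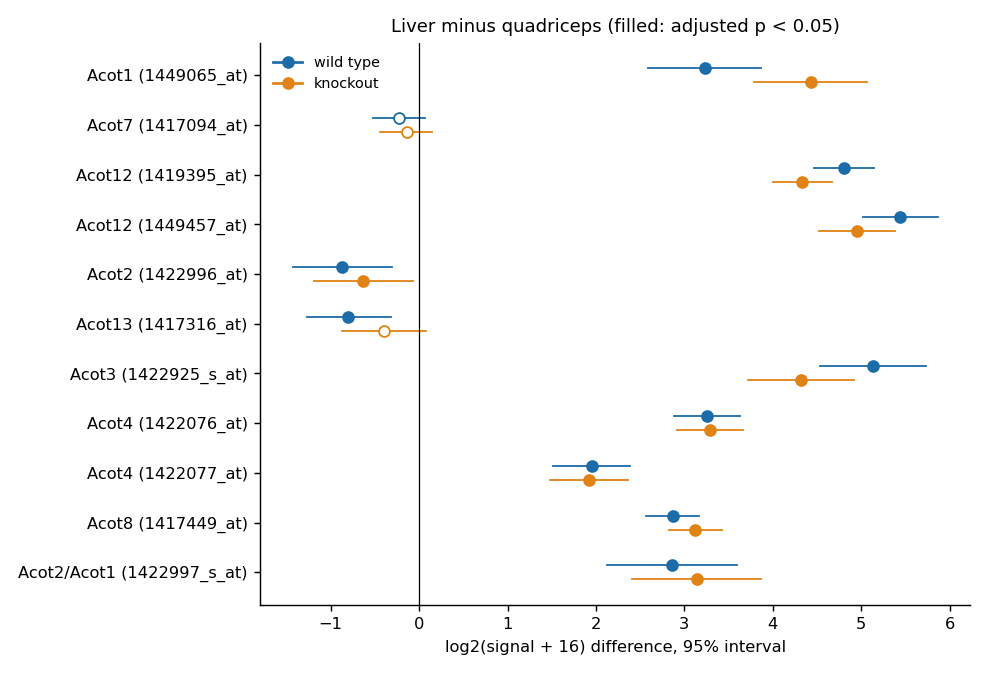
Liver minus quadriceps for each probe set in wild type (blue) and knockout (orange), as the log2(signal + 16) difference with its 95% interval, n = 4 against 4. Filled points passed an adjusted p of 0.05 in limma; the probe sets of Acot1, Acot3, Acot4, Acot8 and Acot12 lie between 1.92 and 5.44, Acot2 and Acot13 lie between -0.87 and -0.40, and Acot7 lies at -0.23 and -0.14.

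Acot12 had wild-type differences of 5.44 (SE 0.21, adjusted p = 1.03e-15) and 4.81 (SE 0.16, adjusted p = 1.46e-16) at its 2 probe sets and knockout differences of 4.95 and 4.33. Acot3 had one of 5.13 in wild type (SE 0.29, adjusted p = 1.09e-12) and 4.32 in knockout, and the 2 probe sets of Acot4 had 3.25 and 1.95 in wild type and 3.29 and 1.92 in knockout. The quadriceps arms of these genes lay near or below the filter signal, so the size of each gap depends on the pseudocount of 16 and the gaps are not ranked. Under the alternatives the wild-type difference of Acot12 ranged from 4.04 to 6.65 at 1449457_at and from 3.0 to 8.04 at 1419395_at.

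Acot8 was above the filter in both tissues and was higher in liver by 2.87 in wild type (SE 0.14, adjusted p = 1.37e-13, a ratio of mean signals of 9.72) and by 3.12 in knockout (SE 0.14, adjusted p = 3.16e-14, a ratio of 11.6). Acot1 was higher in liver by 3.23 in wild type (SE 0.31, adjusted p = 7.54e-09) and by 4.43 in knockout (SE 0.31, adjusted p = 4.15e-11). The ratio of mean Acot1 signals was 11.5 in wild type, and none is given in knockout, where the quadriceps signals lay below the filter signal. The difference between these gaps is the interaction term of 1.2 given above, which did not pass the test.

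Both mitochondrial members were lower in wild-type liver than in wild-type quadriceps, Acot2 with a difference of -0.87 (SE 0.27, adjusted p = 0.00706), and Acot13 with one of -0.80 (SE 0.23, adjusted p = 0.00422). The Acot2 groups overlapped, with signals up to 41.8 in liver and from 40.9 in quadriceps. Its wild-type liver mean of 21.7 lay below the filter signal, and its difference ranged from -1.38 to -0.42 over the alternatives. In knockout Acot2 stood at -0.63 (adjusted p = 0.0442) and Acot13 at -0.40 (adjusted p = 0.13). The Acot2 call in knockout held in 11 of 19 alternatives. It was lost without knockout liver 5, 6 or 8 or knockout quadriceps 6 or 7, at differences of -0.61, -0.58, -0.63, -0.65 and -0.33, and with a pseudocount of 1 (-0.83, adjusted p = 0.0866), no filter (-0.63, adjusted p = 0.0655) or no scaling (-0.46, adjusted p = 0.203). The Acot13 difference in knockout passed in 4 of 20 alternatives. These were quantile normalization with (-0.79, adjusted p = 1.83e-05) and without (-0.69, adjusted p = 5.58e-05) knockout quadriceps 8, all 16 arrays scaled to 1 median (-0.56, adjusted p = 0.0407), and leaving out knockout quadriceps 6 (-0.59, adjusted p = 0.0414).

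Acot7 had similar signals in the tissues of one genotype, with a liver minus quadriceps difference of -0.23 in wild type (95% interval -0.52 to 0.07, adjusted p = 0.161) and -0.14 in knockout (95% interval -0.44 to 0.15, adjusted p = 0.373). The order of its levels was wild-type quadriceps, wild-type liver, knockout quadriceps and knockout liver. Neither the wild-type pair nor the knockout pair differed past the test. In wild type the difference passed under quantile normalization (-0.34, adjusted p = 0.0183), with all 16 arrays scaled to 1 median (-0.36, adjusted p = 0.0203) and without wild-type quadriceps 4 (-0.36, adjusted p = 0.0429). In knockout it passed under quantile normalization (-0.39, adjusted p = 0.00721) and turned to 0.04 without scaling.

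In knockout tissue 8 of 10 members were called between the tissues, 7 higher in liver and 1 lower, where 66.5% of all probe sets were called, 37.7% higher and 28.8% lower. The tissue comparisons of the genotypes and the genotype comparisons of the tissues share arrays, and their values are given side by side for that reason.

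The genes whose signals followed a member most closely were found by Pearson r over the 16 arrays after each tissue's mean was subtracted. For Acot7 they were Adhfe1 (r = 0.97), which oxidises gamma-hydroxybutyrate, Mmut (0.969), the methylmalonyl-CoA mutase, and Selenbp1 (0.962), a selenium-binding protein. For Acot1 they were Csnk1d (0.934), a casein kinase, Bckdha (0.924), a subunit of the branched-chain ketoacid dehydrogenase, and Tm2d2 (0.922). For Acot3 they were Nfe2l1 (0.882), a transcription factor of proteasome genes, Sult1b1 (0.866), a sulfotransferase, and Aldh4a1 (0.859), an enzyme of proline breakdown. The arrays share genotype and library, so these values are descriptions. Both quadriceps means of Acot3 and all knockout quadriceps signals of Acot1 lay below the filter signal, so the correlations of these genes rest in part on dim signals.

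Of 14 listed genes for other enzymes that cut acyl-CoA or related thioesters, 11 had a named probe set, and in liver 8 were tested, 1 rose and 0 fell, with a median difference of 0.04 against 0.03 over all probe sets. The gene that rose was Acot6, a peroxisomal relative in the same gene cluster as Acot1, from 30.9 ± 4.25 to 57.5 ± 5.30 (0.65, SE 0.14, adjusted p = 0.011). In quadriceps its means were 99.3 ± 13.6 and 69.1 ± 31.8 (-0.50, adjusted p = 0.312), and its interaction term of 1.15 passed (SE 0.28, adjusted p = 0.0372). In quadriceps 0 of 7 of these genes were called and 1 had an unadjusted p under 0.05 in limma, with a median of -0.31. Acot5, another neighbour, lay below the filter in both tissues.

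The enzymes on the other side of the reaction, acyl-CoA synthetases and fatty acid transporters, had 13 tested genes in liver, of which 1 rose and 3 fell, with a median of 0.03. Acsl5, a long-chain acyl-CoA synthetase, rose from 2084 ± 245 to 2801 ± 79.0 (0.43, SE 0.09, adjusted p = 0.00686). Slc27a1, a fatty acid transporter, fell by 1.15 on the log2 scale, from 86.8 ± 17.2 to 30.0 ± 5.88 (SE 0.16, adjusted p = 0.000495). Slc27a5, a bile acid and fatty acid CoA ligase, had a difference of -0.34 (adjusted p = 0.00359), and Dbi, the acyl-CoA binding protein, one of -0.36 (adjusted p = 0.00608). The counts of this and the other gene lists stand against 8.80% of all probe sets called in liver, 4.44% higher and 4.36% lower, and 22.3% with an unadjusted p under 0.05. With 1 probe set per gene, as the lists were read, 10.1% were called in liver and 1.03% in quadriceps. Over all probe sets the shares in quadriceps were 0.615% called and 15.8% with an unadjusted p under 0.05 in limma. There 0 of 10 were called and 2 had an unadjusted p under 0.05 in limma, with a median of -0.35 against -0.15 over all probe sets.

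Of the genes that make, carry or break down coenzyme A, 12 were tested in liver and 1 fell. This was Pank1, a pantothenate kinase that sets the pace of coenzyme A synthesis, from 2716 ± 356 to 1770 ± 192 (-0.61, SE 0.11, adjusted p = 0.00273). In quadriceps 1 of 10 fell, Slc25a42, the mitochondrial carrier of coenzyme A, from 277 ± 57.9 to 93.7 ± 21.3 (-1.42, SE 0.20, adjusted p = 0.00186). The list medians were -0.11 in liver and -0.37 in quadriceps.

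Of PPAR alpha and its known targets, 23 were tested in liver, where 2 rose and 2 fell with a median of 0.02. Hadhb (0.28), of the mitochondrial trifunctional protein, and Creb3l3 (0.32), a liver transcription factor, rose, with adjusted p of 0.0304 and 0.0283. Acaa2 (-0.25), a thiolase, and Cyp4a14 (-0.47), a fatty acid hydroxylase, fell, with adjusted p of 0.0338 and 0.00598. At an unadjusted p under 0.05 there were 14 of 23, 6 higher, against 22.3% of all probe sets. In quadriceps 1 of 21 fell and 0 rose, with a median of -0.45, and 11 of 21 had an unadjusted p under 0.05, 1 of them higher, against 15.8% of all. Ppara, the gene of PPAR alpha itself, was at 130.1 ± 53.2 in wild-type and 53.1 ± 13.9 in knockout quadriceps, without overlap, and did not pass the test (-1.03, SE 0.25, adjusted p = 0.0829). In liver it was at 2089 ± 308 and 1595 ± 445 (-0.42, adjusted p = 0.164). The gene that fell in quadriceps was Ehhadh, a bifunctional enzyme of peroxisomal beta oxidation, from 128 ± 34.1 to 31.4 ± 10.6 (-1.61, SE 0.22, adjusted p = 0.00186), with an interaction term of 1.4 (adjusted p = 0.00732).

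Ehhadh was also the 1 of 16 genes of peroxisomal beta oxidation and acyl transfer called in quadriceps. In liver 0 of 19 of these genes were called and 3 had an unadjusted p under 0.05 in limma, with a median of 0.03, the same as over all probe sets. Each gene of these lists was read from its brightest probe set. The lists overlap, and the last one also holds Acot8.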

How the data were processed

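RNA from 16 samples was measured on 16 Affymetrix Mouse430A_2 arrays, 4 per group. The deposited values give the intensity of each probe set on a linear scale, computed by the authors in GCOS, a program for Affymetrix arrays, as the submitters' processing notes record. The program's version, summary method and scaling are not given in these sources. Groups and replicate numbers came from the sample titles, and fluidics station, module and scan day from the deposited experiment records.

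The table held 22690 probe sets, 64 of them controls. Of the others 20380 had 1 gene symbol, 691 several and 1555 none in the platform annotation. Median signals were 41.6 to 48.9 in liver, used as deposited, and 15.6 to 59.2 in quadriceps, where arrays were multiplied by 0.678 to 2.57 because medians differed by more than 1.5 times. Values were transformed as log2(signal + 16). Probe sets with 1 symbol entered where the tissue mean reached the 40th percentile, or did so in either tissue in fits over 16 arrays. The number of arrays limits the precision.

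Genotypes were compared within each tissue, and the interaction and tissue differences over 16 arrays, with limma 3.58.1 in R 4.3.3 (lmFit, eBayes with a variance trend) and Benjamini-Hochberg adjustment over all probe sets. The fits were also run on simulated arrays with independent noise and without scaling. Those arrays held no shift of a whole library, so they do not test the handling of knockout quadriceps 8. The members, lists of related genes and alternatives were chosen with earlier results of these data known. The rule for named genes took all 8 members, the list members past the threshold and the 3 genes most like each member called between genotypes. Acot5, Ppara, Klf15 and the marker genes are named outside it, Ppara after its values were seen. Alternatives were pseudocounts of 1 and 64, no filter or the 60th percentile, other scalings, no trend, 1 probe set per gene, all arrays in 1 fit, batch and replicate blocks, and leaving out each array. Including probe sets with several symbols was added after seeing the data. Promoter windows came from RefSeq, assembly GRCm38.p6. Protein and probe sequences were not used here. Figures were drawn with matplotlib 3.10.9.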

Additional observations from a re-analysis of the deposited data

Results flagged for a closer look

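Of 40 groups of 4 arrays (10 probe sets in 4 groups), 4 held an array whose gap to the nearest other was a larger share of the group's range than Dixon's critical value for 4 values allows. Chance alone marks about 1 in 20 groups. All 4 lay in wild-type quadriceps. Acot1 was 159.8 on wild-type quadriceps 4, against 93.9 to 104.2 on the other 3 arrays. Acot8 was 55.7 on wild-type quadriceps 3, against 34.9 to 37.0. Acot12 (1449457_at) was 3.77 on wild-type quadriceps 4, against 14.5 to 15.4, all below the filter signal. Acot13 was 1430.1 on wild-type quadriceps 3, against 1084 to 1141.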

How the results depend on the processing

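Acot7 was called lower in knockout under 20 of 20 alternatives in liver (-1.14 to -0.72) and 22 of 22 in quadriceps (-1.36 to -0.81). Acot1 in quadriceps was called lower under the 21 that tested it (-2.97 to -1.16). Scan day as a block and leaving out knockout quadriceps 8 set apart the same array, so they are not separate checks. The count of members called in liver, 2, became 1 (Acot7) with no filter, with all 16 arrays scaled to 1 median, with no variance trend and with all 16 arrays in 1 fit, and ranged from 1 to 3 when single arrays were left out. The quadriceps count of 2 became 1 with a filter at the 60th percentile, where Acot1 was not tested, and stayed at 2 when single arrays were left out. The interaction count of 0 ranged from 0 to 2. The causes were not tested.

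Directions that turned were all of differences short of the threshold. In quadriceps these were Acot13 under quantile normalization (0.02), Acot2 without scaling (-0.15), and Acot8 without scaling (-0.21), with scan day as a block (-0.03) and under quantile normalization without knockout quadriceps 8 (-0.03). In the interaction they were Acot4, at 1422077_at with a pseudocount of 1 (0.04) and under quantile normalization without knockout quadriceps 8 (0.04) and at 1422076_at with a pseudocount of 64 (-0.09), and Acot7 under quantile normalization with (-0.06) and without (-0.05) knockout quadriceps 8. Between knockout tissues it was Acot7 without scaling (0.04). When single arrays were left out, Acot4 at 1422077_at ranged from -0.26 to 0.01 in liver and from -0.16 to 0.11 in the interaction, Acot4 at 1422076_at from -0.08 to 0.15 in the interaction, and in quadriceps Acot2 from -0.14 to 0.33, Acot8 from -0.03 to 0.13 and Acot13 from -0.43 to 0.04.

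Over all probe sets the liver count of 1098 fell to 420 with all 16 arrays in 1 fit. The quadriceps count of 77 became 149 without scaling, 501 with all 16 arrays in 1 fit, 133 with the fluidics module as a block, 2631 with scan day as a block and 1514 under quantile normalization without knockout quadriceps 8, and ranged from 35 to 2646 when single arrays were left out. The interaction count of 242 became 133 and 370 with pseudocounts of 1 and 64 and 435 under quantile normalization, and 2411 without knockout quadriceps 8. With 1 probe set per gene the tissue counts of 9467 and 9407 became 6229 and 6156, where fewer probe sets were tested.

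The labels do not say whether liver and quadriceps samples of the same number came from the same mouse. Same-numbered samples correlated in their deviations from the group means by -0.069 to 0.042, 0 of 8 over 0.1. Of the 8, 3 correlated best with their own number. Such correlations between different tissues cannot decide whether the samples were paired. With the replicate number as a block the interaction called 0 members and 154 probe sets in place of 242, and the tissue differences called 9 and 8 members as before. Signals near the filter, those of Acot2 in liver and of Acot3, Acot4 and Acot12 in quadriceps, limit what the arrays can show of them.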
